A study of Mus musculus with 6 samples.

Results

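The core circadian clock genes are the 10 rows of the deposited gene table whose symbol is Arntl, Clock, Npas2, Per1, Per2, Per3, Cry1, Cry2, Nr1d1 or Nr1d2, out of 23415 genes. All 10 were found by symbol, and 8 of them were among the 11515 genes the authors tested. Arntl and Npas2 carried the mark NOTEST, which in a Cuffdiff table means too few alignments for a test. Liver RNA was sequenced from Enpp7 (alkaline sphingomyelinase, alk-SMase) knockout mice and from wildtype mice, both C57BL/6. There were 3 libraries labelled K (82, 84 and 85), read as knockout, and 3 labelled W (81, 83 and 90), read as wildtype. The titles hold no other sign of genotype, and the labels give no age, sex, feeding state or hour of collection. The tissue label is liver, whereas the design text speaks of intestine. The authors deposited 1 value per genotype and none per mouse, in a layout whose unit is FPKM (fragments scaled for transcript length and library size), so no spread between mice is known.

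The circadian clock of a cell is a feedback loop of transcription. BMAL1, the product of Arntl, pairs with CLOCK or its relative NPAS2 and activates genes through E-boxes. Among these genes are the Period and Cryptochrome genes, whose products return to the nucleus and repress BMAL1 and CLOCK. They also include Nr1d1 and Nr1d2, whose products REV-ERB alpha and REV-ERB beta compete with ROR receptors at ROR response elements (ROREs) and repress Arntl, Npas2 and Cry1. In liver the loop times much of lipid, glucose and drug metabolism, and its transcripts rise and fall over the day.

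In the knockout livers Nr1d1 rose 2.14-fold and Per2 fell to 0.560 times its wildtype level, while the other 6 tested members did not pass. Per1 and Cry1 had ratios as far below 0 as Per2 but with wider errors. Rose and fell are used here of genes with q under 0.05 in the authors' deposited table. That rule took in 1.08% of all tested genes, 0.573% as higher and 0.504% as lower in knockout livers. All ratios are log2 of knockout over wildtype. The error after each is the standard error (SE) implied by the authors' z statistic, and the 95% intervals rest on it. It is an error of their model and not a spread seen between mice.

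Both groups carried hepatocyte transcripts. The 10 hepatocyte markers summed to 31549 FPKM in knockout livers and 26794 FPKM in wildtype livers. Alb counts as 0 in both sums, since it carried the mark HIDATA, which in a Cuffdiff table means too many fragments to process. Its 0 is not a measured level. Of the 9 tested, 4 ratios were above 0 and 5 below, with a median of -0.07. The 10 intestinal epithelium markers summed to 94.3 FPKM in knockout livers and 80.4 FPKM in wildtype livers, and 4 were tested. Most of those sums came from Fabp2 (42.9 FPKM in knockout livers, 54.7 FPKM in wildtype livers) and Tff3 (48.8 and 23.9 FPKM). Enpp7, the targeted gene, was not tested, at 0.141 FPKM in knockout livers and 0.0541 FPKM in wildtype livers, so it does not check the labels. Markers of neutrophils and Kupffer cells moved with genotype. The 9 neutrophil markers found summed to 108 FPKM in knockout livers and 5.85 FPKM in wildtype livers, with 4 of 8 tested higher. Of these 8, Elane, looked up afterwards, had an SE of 61.7. A log2 ratio of 214 in size would have been needed to call it. The 10 Kupffer cell markers summed to 506 FPKM in knockout livers and 318 FPKM in wildtype livers, with 2 of 10 higher. Lymphocyte markers were low. The 4 T and NK cell markers found summed to 1.95 FPKM in knockout livers and 1.87 FPKM in wildtype livers. The 4 B cell markers summed to 1.47 FPKM in knockout livers and 2.20 FPKM in wildtype livers. In each of these lists 1 was tested and 0 passed. Of 20 acute phase genes 14 rose, and their sum was 69798 FPKM in knockout livers against 11900 FPKM in wildtype livers. Over all tested genes 0.573% rose. In these bulk samples fewer cells of a type and less RNA per cell cannot be told apart, and the part of these shifts in the clock results was not tested.

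RefSeq promoters (build GRCm38.p6) were available for 9 of the 10 members; Per2 had none. The 250 bases before the start are printed for Nr1d1, Per1 and Cry1, the matched members with an unadjusted p under 0.05, and for Per3, which alone among the 9 held D-boxes. Capitals mark E-boxes (CACGTG), variant E-boxes (CACGTT, read AACGTG on the other strand) and D-boxes (TTATGTAA, TTACATAA, TTACGTAA or TTATATAA).
Nr1d1, chr11:98775378-98775627, minus strand: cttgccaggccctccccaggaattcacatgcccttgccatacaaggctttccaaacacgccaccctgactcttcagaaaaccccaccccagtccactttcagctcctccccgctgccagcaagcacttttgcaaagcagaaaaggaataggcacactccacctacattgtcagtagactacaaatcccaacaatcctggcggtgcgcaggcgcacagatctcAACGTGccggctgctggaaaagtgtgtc
Per1, chr11:69098699-69098948, plus strand: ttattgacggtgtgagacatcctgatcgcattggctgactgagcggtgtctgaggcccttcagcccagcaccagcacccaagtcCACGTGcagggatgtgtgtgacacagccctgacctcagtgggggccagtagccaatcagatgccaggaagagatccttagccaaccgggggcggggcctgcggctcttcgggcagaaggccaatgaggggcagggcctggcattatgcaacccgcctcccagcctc
Cry1, chr10:85185055-85185304, minus strand: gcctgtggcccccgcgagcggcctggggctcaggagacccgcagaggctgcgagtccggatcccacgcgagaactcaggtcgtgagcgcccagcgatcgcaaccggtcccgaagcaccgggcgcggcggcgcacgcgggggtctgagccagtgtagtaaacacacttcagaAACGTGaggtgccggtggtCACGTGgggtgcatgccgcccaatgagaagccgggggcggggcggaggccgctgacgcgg
Per3, chr4:151044666-151044915, minus strand: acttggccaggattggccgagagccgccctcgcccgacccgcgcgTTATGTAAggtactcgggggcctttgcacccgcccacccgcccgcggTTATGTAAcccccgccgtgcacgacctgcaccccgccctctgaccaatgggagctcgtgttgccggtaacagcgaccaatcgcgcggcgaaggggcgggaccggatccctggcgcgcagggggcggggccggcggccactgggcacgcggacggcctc
The starts of Nr1d1, Per1 and Per3 in RefSeq lie outside their loci in the deposited table. Nr1d1 starts at base 98775377 of chromosome 11, and its locus ends at base 98775242. The first start of Per1 is base 69098949, and its locus begins at base 69098956. Per3 starts at base 151044665, and its locus ends at base 151044622. Cry1 held an E-box at -60 to -55 and a variant E-box at -79 to -74, counted in bases before the start. Per1 held an E-box at -166 to -161, Nr1d1 a variant E-box at -28 to -23, Cry2 a variant E-box at -166 to -161, and Per3 D-boxes at -205 to -198 and -158 to -151.

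These letters were searched on both strands in the 250 bases before each start, for every start in the table. The 9 members have 13 annotated promoters, since Clock, Arntl and Per1 have several starts, and shares are given per promoter. An E-box stood in 2 of 13 member promoters and a variant E-box in 3 of 13, against 6.02% and 3.85% of all 32851 promoters. A D-box stood in 1 of 13 member promoters and in 1.43% of all promoters. AGGTCA, the core of a RORE, was found in 3 of 13 (one each of Per1, Clock and Nr1d2) and in 14.0% of all promoters. The full RORE and the cAMP response element (TGACGTCA) were found in 0 of 13, and in 0.648% and 1.55% of all promoters. The window is short, and a match is a description and not a binding site. Arntl is the member best known as a RORE target. Looked up afterwards, a RORE lay at bases 28 to 37 counted from its second start, shown here in capitals.
Arntl, chr7:113207530-113207555, plus strand: aaggcagaAAGTAGGTCAgggacgga

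**Figure D1:**
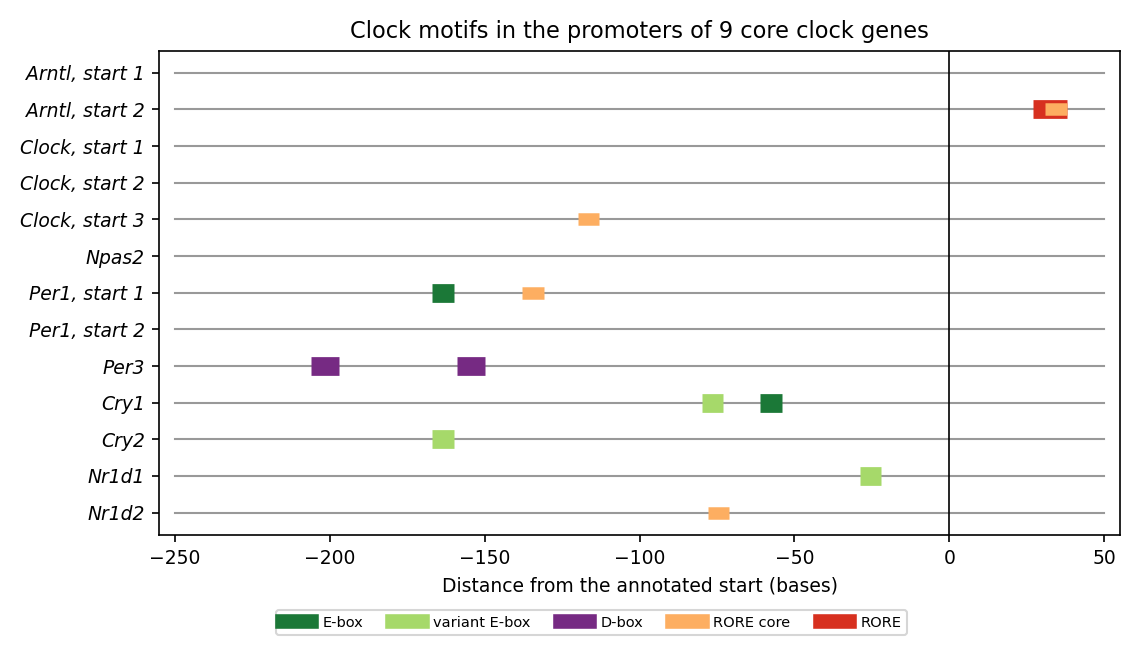
Positions of E-boxes, variant E-boxes, D-boxes, RORE cores and full ROREs in the promoters of 9 core clock genes, with distance from the annotated start in bases on the horizontal axis and 1 line per start. Per3 carries 2 D-boxes, Cry1 an E-box beside a variant E-box, and the full RORE of Arntl lies after its second start.

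The REV-ERB genes, the repressors of the stabilising loop, differed in their ratios. Nr1d1 stood at 41.0 FPKM in knockout livers and 19.2 FPKM in wildtype livers, a 2.14-fold rise. Its log2 ratio was 1.10 ± 0.23 (SE), with a 95% interval of 0.65 to 1.55 and q = 0.00043 in the authors' deposited table. By p it ranked 50th among all tested genes, and 1.69% of them had a larger absolute ratio. Nr1d2, its close relative with largely shared targets, stood at 14.4 FPKM in knockout livers and 16.1 FPKM in wildtype livers. Its log2 ratio was -0.17 ± 0.22, with an interval of -0.60 to 0.27. The ratio of Nr1d1 exceeded that of Nr1d2 by 1.26 ± 0.32, with an interval of 0.63 to 1.89. In level, Nr1d1 was 2.85 times Nr1d2 in knockout livers and 1.19 times in wildtype livers.

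The last exon of Nr1d1 meets Thra, a thyroid hormone receptor gene on the opposite strand. The 2 genes share 263 exon bases in the GENCODE M21 annotation, or 8.55% of the exon bases of Nr1d1. In the deposited table the 2 loci do not overlap: that of Thra ends at base 98765111 and that of Nr1d1 starts at base 98767935. The labels do not state whether strand was kept, so it is unknown whether reads of Thra in that stretch were counted for Nr1d1. Thra itself stood at 4.91 FPKM in knockout livers and 4.56 FPKM in wildtype livers, with a log2 ratio of 0.10 ± 0.29.

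The Period genes, whose products carry the repressing complex into the nucleus, were all lower in value in knockout livers, and Per2 alone passed. Per2 stood at 4.79 FPKM in knockout livers and 8.57 FPKM in wildtype livers. Its log2 ratio was -0.84 ± 0.23, with an interval of -1.29 to -0.39 and q = 0.0314 in the authors' deposited table. Per2 is left out of the authors' short list of 95 differential genes. That list holds no gene with an absolute log2 ratio under 1.01, and the 29 called genes missing from it have ratios of 0.99 at most.

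Per1, the Period gene that responds fastest to hormonal and cAMP signals, stood at 8.16 FPKM in knockout livers and 14.5 FPKM in wildtype livers. Its log2 ratio of -0.83 ± 0.26 was as large as that of Per2 but had a wider error, with an interval of -1.34 to -0.32 and q = 0.102 in the authors' deposited table. With that error a ratio of 0.90 in size would have been needed for a call. Per3, which is the least needed of the 3 for rhythm in mice, stood at 4.47 FPKM in knockout livers and 5.80 FPKM in wildtype livers. Its log2 ratio was -0.38 ± 0.24, with an interval of -0.85 to 0.09.

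The ratios of the Period genes could not be told from each other within their errors. That of Per1 minus that of Per2 was 0.01 ± 0.35, with an interval of -0.67 to 0.69, and -0.03 with a pseudocount of 1. The difference of Per1 minus Per3 was -0.45 ± 0.35 and that of Per2 minus Per3 was -0.46 ± 0.33, and both intervals held 0. The level of Per1 was 1.70 times that of Per2 in knockout livers and 1.69 times in wildtype livers. Summed over the 3 genes, Period transcripts stood at 17.4 FPKM in knockout livers and 28.9 FPKM in wildtype livers.

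The Cryptochrome genes encode the strongest repressors of CLOCK and BMAL1. Cry1 stood at 2.17 FPKM in knockout livers and 3.89 FPKM in wildtype livers. Its log2 ratio of -0.84 ± 0.31 was of the size seen for Per2, with an interval of -1.45 to -0.24, and q was 0.288 in the authors' deposited table. Cry1 has a lower level and a larger error than Per2, and a ratio of 1.07 in size would have been needed for a call. Cry2 stood at 8.63 FPKM in knockout livers and 9.68 FPKM in wildtype livers, with a log2 ratio of -0.17 ± 0.26 and an interval of -0.67 to 0.33. The ratio of Cry1 minus that of Cry2 was -0.68 ± 0.40, with an interval of -1.46 to 0.11. Cry2 transcripts were 3.98 times Cry1 transcripts in knockout livers and 2.49 times in wildtype livers. An annotated transcript on the other strand, D930015M05Rik, shares 295 exon bases with Cry2 and stood at 1.06 FPKM in knockout livers and 1.10 FPKM in wildtype livers.

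The activators were among the less abundant members, although Clock stood above Cry1 in knockout livers. Clock, which encodes the histone-modifying partner of BMAL1, stood at 2.62 FPKM in knockout livers and 2.22 FPKM in wildtype livers, with a log2 ratio of 0.24 ± 0.30 and an interval of -0.34 to 0.82. Its deposited locus spans 285640 bases of chromosome 5 and also takes in Tmem165, Pdcl2 and Nmu, so it is the span of a group of neighbours rather than of Clock alone. Arntl stood at 0.478 FPKM in knockout livers and 0.223 FPKM in wildtype livers. Its log2 ratio of 1.10 ± 0.93 matched that of Nr1d1 in size, but the interval ran from -0.72 to 2.92. With a pseudocount of 1, it was 0.27. Npas2, which can stand in for Clock, stood at 0.0292 FPKM in knockout livers and 0.0222 FPKM in wildtype livers. Its log2 ratio of 0.40 ± 1.60 gives no direction. The ratio of Clock minus that of Npas2 was -0.16 ± 1.63 and had no stable sign, at 0.16 with a pseudocount of 1.

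**Figure D2:**
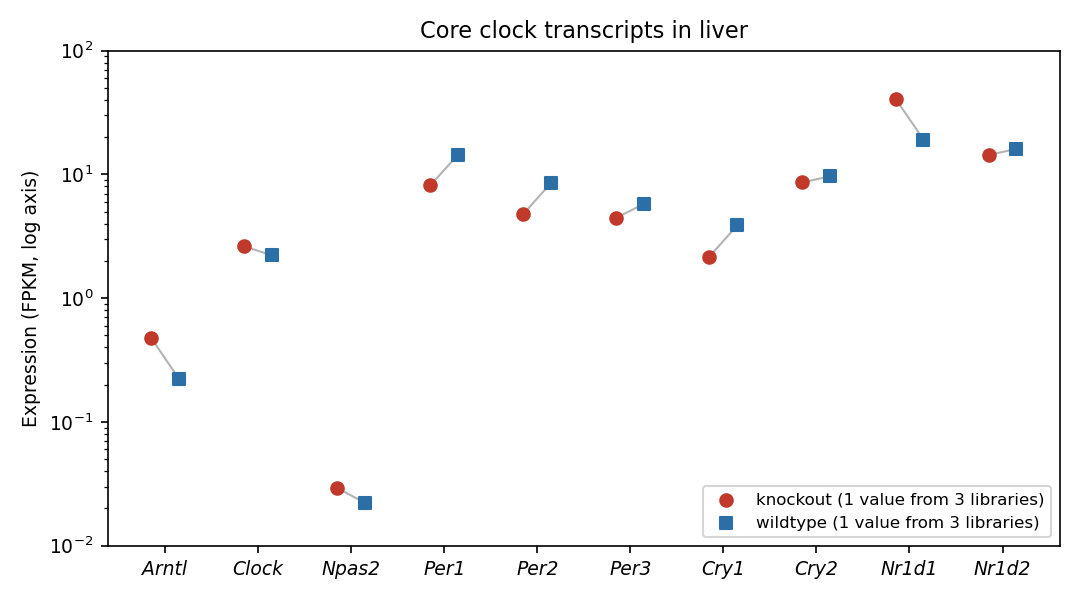
Expression of the 10 core clock genes in FPKM on a log axis, with the knockout value (circle) left of the wildtype value (square) and a line joining them; each is the authors' value from 3 libraries, with no spread. Nr1d1 is the highest member in both groups, at 41.0 FPKM in knockout and 19.2 FPKM in wildtype livers, and Npas2 the lowest.

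The order of the members by level was much the same in both groups. Nr1d1 and Nr1d2 led, Per2 and Per3 held the fifth and the sixth place, and Arntl and Npas2 came last. In knockout livers Cry2 stood above Per1 and Clock above Cry1, and in wildtype livers each of these neighbours was the other way round. Cry2 and Per1 were at 8.63 and 8.16 FPKM in knockout livers and at 9.68 and 14.5 FPKM in wildtype livers. The errors used here belong to ratios and not to levels, so it is unknown which neighbours differ beyond the spread between mice. The highest member was 1404 times the lowest in knockout livers and 864 times in wildtype livers.

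Set against each other within a group, repressors of different arms stood in different proportions. Nr1d1 was 8.55 times Per2 in knockout livers and 2.24 times in wildtype livers, and 18.9 times Cry1 in knockout livers against 4.93 times in wildtype livers. Nr1d1 and Arntl stood in a like proportion, at 85.7 times in knockout livers and 86.1 times in wildtype livers, although Arntl lies near the floor. The REV-ERB genes together stood at 55.3 FPKM in knockout livers and 35.3 FPKM in wildtype livers. The Cryptochrome genes summed to 10.8 FPKM in knockout livers and 13.6 FPKM in wildtype livers, and the 3 activators to 3.13 FPKM in knockout livers and 2.47 FPKM in wildtype livers. Over all 10 members the sums were 86.7 FPKM in knockout livers and 80.2 FPKM in wildtype livers.

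**Figure D3:**
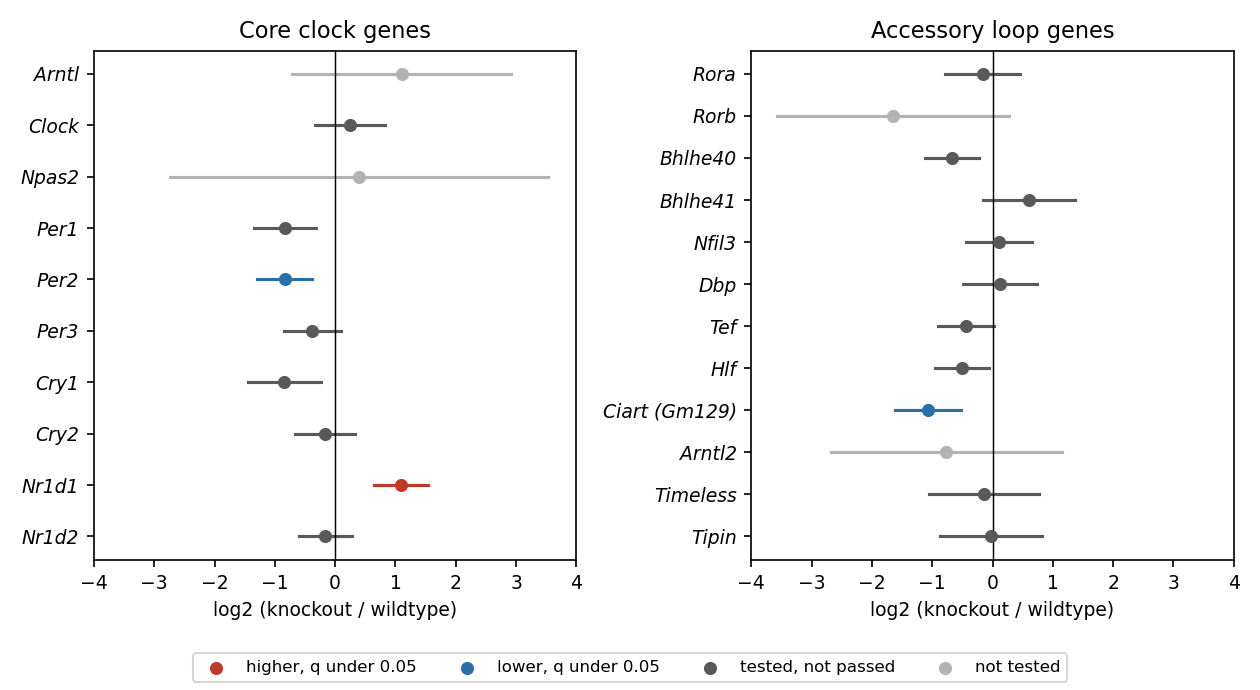
Log2 ratio of knockout over wildtype with its 95% interval from the authors' model, for the 10 core clock genes (left) and 12 accessory loop genes (right); colours mark genes with q under 0.05 and genes not tested. Nr1d1 lies at 1.10 and Per2 at -0.84 among the core genes, and Ciart (listed as Gm129) at -1.07 among the accessory genes.

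Of the 8 tested members 1 rose and 1 fell, where 0.573% of all tested genes rose and 0.504% fell. At an unadjusted p under 0.05 in the authors' deposited table there were 4 of 8, where 5.29% of all tested genes reached that level. Higher among them was 1 (2.82% of tested genes) and lower were 3 (2.47% of tested genes). Of all 10 ratios 4 were above 0 and 6 below, with a median of -0.17. The 8 tested members had a median of -0.27, and the 11456 tested genes with a finite ratio had a median of 0.00 (-0.0012). The members were chosen with results of these data known, so no test over the 10 genes was made.

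**Figure D4:**
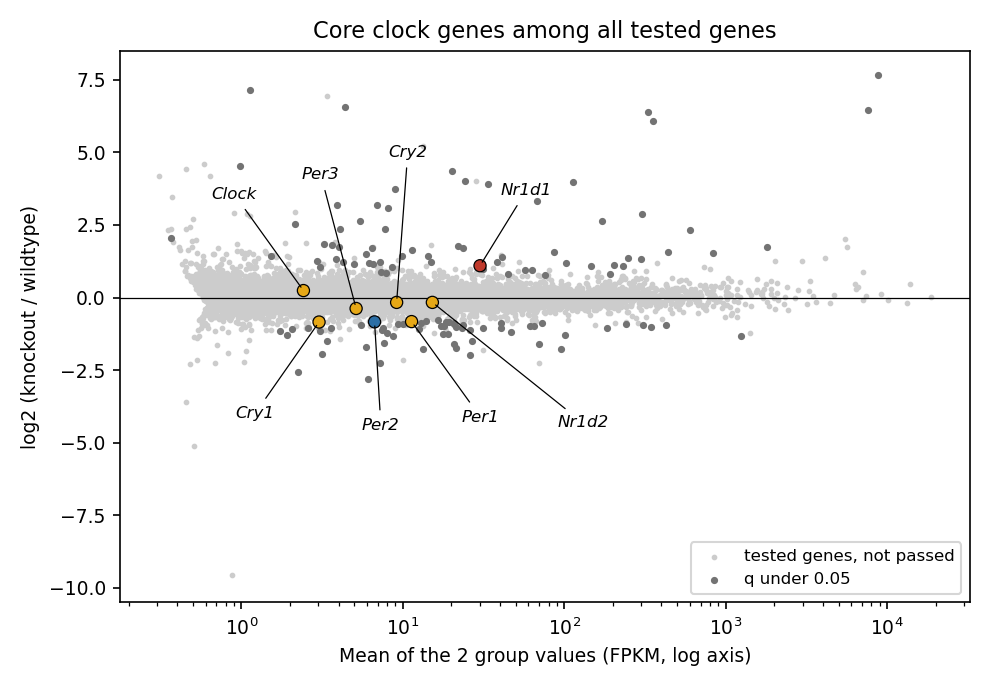
Log2 ratio of knockout over wildtype against the mean of both group values in FPKM (log axis) for all tested genes with a finite ratio; large circles are the 8 tested core clock genes, red for higher and blue for lower at q under 0.05 and yellow for not passed. Nr1d1 lies above and Per2 below the main band of genes, with Per1 and Cry1 level with Per2.

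Genes of the accessory loops, which couple to the core loop, were counted from a list of 12. All were found, Ciart under its older symbol Gm129, and 10 were tested. None rose, 1 fell and 9 did not pass, where 0.504% of all tested genes fell. The median log2 ratio of the list was -0.15. Ciart, a repressor of BMAL1 and CLOCK, fell to 8.12 FPKM in knockout livers, against 17.1 FPKM in wildtype livers. Its log2 ratio was -1.07 ± 0.28, with q = 0.0153 in the authors' deposited table. Bhlhe40, which encodes the E-box repressor DEC1, stood at 30.8 FPKM in knockout livers and 48.9 FPKM in wildtype livers (-0.67 ± 0.23, q = 0.189 in the authors' deposited table).

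Clock output factors that bind D-boxes, all but Hlf picked with their values in view, did not pass. Dbp, an E-box target often read as a marker of clock activity, stood at 70.6 FPKM in knockout livers and 64.8 FPKM in wildtype livers, with a log2 ratio of 0.12 ± 0.31. Tef stood at 35.2 FPKM in knockout livers and 47.9 FPKM in wildtype livers (-0.44 ± 0.24), and Hlf at 7.68 FPKM in knockout livers and 10.8 FPKM in wildtype livers (-0.50 ± 0.23). Nfil3, a repressor at D-boxes and a target of REV-ERB alpha, stood at 6.73 FPKM in knockout livers and 6.25 FPKM in wildtype livers (0.11 ± 0.28).

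Of 19 tested enzymes that modify clock proteins (kinases, ubiquitin ligases and proteases), 0 rose, 1 fell and 18 did not pass. Usp2, a deubiquitinase that acts on clock proteins and is itself rhythmic, fell to 11.3 FPKM in knockout livers, against 26.7 FPKM in wildtype livers. Its log2 ratio was -1.24 ± 0.24, with q = 4.47e-05 in the authors' deposited table. Next by p were Prkaa2, a catalytic subunit of AMP-activated kinase that marks cryptochromes for decay, at 6.28 FPKM in knockout livers and 8.93 FPKM in wildtype livers (-0.51 ± 0.23), and Siah2, a ubiquitin ligase for REV-ERB alpha, at 8.55 FPKM in knockout livers and 11.2 FPKM in wildtype livers (-0.39 ± 0.25). The list median was -0.07, and 0.504% of all tested genes fell.

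Of 19 tested coregulators 0 rose and 0 fell, where 0.573% of all tested genes rose and 0.504% fell. At an unadjusted p under 0.05 in the authors' deposited table, reached by 5.29% of all tested genes, there was 1 of the 19. That was Nampt, the rate-limiting enzyme of NAD salvage and a clock target, at 13.0 FPKM in knockout livers and 20.2 FPKM in wildtype livers (-0.63 ± 0.23, q = 0.277 in the authors' deposited table). Sfpq, a splicing factor found in PER complexes, stood at 18.9 FPKM in knockout livers and 26.1 FPKM in wildtype livers, and Kmt2c (listed as Mll3), a histone methyltransferase, at 1.20 FPKM in knockout livers and 1.51 FPKM in wildtype livers. The list median was -0.10.

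By position, Nr1d1 (98767935 to 98775242) and Per1 (69098956 to 69109957) lie on chromosome 11 in the deposited table (mm10), as does Enpp7. Nr1d1 is 20.2 Mb and Per1 49.9 Mb from it. Within 25 Mb of Enpp7, a window chosen after the values were seen, 3 of 370 tested genes passed, Nr1d1 among them. That is 0.811%, where 1.08% of all tested genes passed. Per2 (91415982 to 91459328) and Npas2 lie on chromosome 1, Cry1 (85131700 to 85185054) on chromosome 10, and the other members on chromosomes 2, 4, 5, 7 and 14.

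The number of members called lower changed from 1 to 3 when both groups were brought to the same sum, and not under the other scalings. As deposited, 66 genes were higher and 58 lower over the whole table. The listed values summed to 646306 FPKM in knockout livers and 564749 FPKM in wildtype livers. With both brought to the same sum, every ratio dropped by 0.19, and 49 genes were higher and 140 lower. Relative to that shift Per1 was lower at -1.02 (q = 0.0087) and Cry1 at -1.04 (q = 0.0474), besides Per2, and Bhlhe40 also passed. With the sum taken outside the acute phase genes, ratios dropped by 0.06, 58 genes were higher and 77 lower, and Per1 and Cry1 did not pass. With the median of all tested genes at 0, and with quantile normalization, 1 member was lower, as in the deposited values. Nr1d1 passed as higher under all of these scalings and pseudocounts, between 0.90 and 1.10. Under the same settings Clock ranged from 0.05 to 0.24. Npas2, which was not tested, ranged from 0.01 to 0.40 where it had a value. Its low end came from a pseudocount of 1, which cannot change the sign of a ratio.

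**Figure D5:**
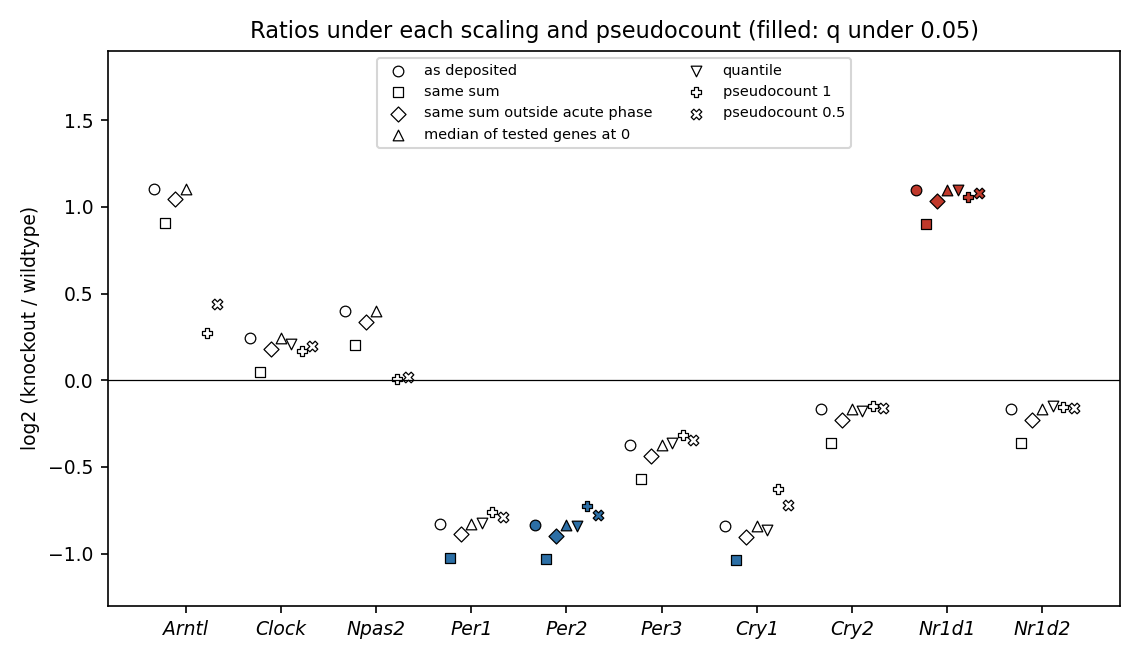
Log2 ratio of knockout over wildtype of each core clock gene as deposited and under 6 other scalings or pseudocounts (marker shapes), filled red or blue where q was under 0.05. Nr1d1 and Per2 are filled throughout, and Per1 and Cry1 only with both groups at the same sum; Arntl and Npas2, which were not tested, have no value after quantile normalization.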

How the data were processed

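Liver RNA libraries of 3 knockout and 3 wildtype mice were made with the Illumina TruSeq kit and read as 50 nt single ends, per the labels' protocols. Per the submitters' processing notes, Bowtie2 was used with build mm10; no source used here states the program behind the tables. Both tables hold 1 expression value per genotype, in the layout of Cuffdiff, and for that reason the deposited values were taken as FPKM. Per the file headers, the log2 ratio has wildtype on top, and it was turned round. The test statistic deposited by the authors is a score that behaves as a z, and the deposited p-value follows from it (largest difference 2.63e-06). The deposited q-value is its Benjamini-Hochberg adjustment over 11515 tested genes. Each SE is the ratio divided by that z.

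No value per mouse was used, so the authors' q was kept as the test, as planned for that case. Read depth is unknown, and p-values cannot be set against a spread between mice. The list members and gene lists were chosen with earlier results of these data known. Named genes are the 10 members, the called genes of each pathway list and its 3 tested genes with the smallest p; others are said to be chosen later. One gene of the accessory loop list is not reported here and is left out of that list's counts. With 1 value per group no genes of like pattern can be named. Alternatives (scaling, quantile normalization, pseudocounts of 1 and 0.5, a mean of at least 1 FPKM, other thresholds, the short list) reused the SE; the steps were tested on simulated data. For the difference between paralogues these alternatives were added after seeing the data. Python 3.11.15, pandas 2.3.3 and scipy 1.17.1 were used. Promoters are from RefSeq (GRCm38.p6) and exons from GENCODE M21 on the same build.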

Additional observations from a re-analysis of the deposited data

How the results depend on the processing

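With the listed values of both groups brought to 1 sum, the core clock genes called lower numbered 3, the accessory loop genes called lower 2 and the coregulators called lower 1, against 1, 1 and 0 as deposited. At q under 0.01, 0 core clock genes and 0 accessory loop genes were lower, and 79 genes were called over the whole table in place of 124; with both groups at the same sum there were 189. In the authors' short list 0 core clock genes were lower. The other counts kept within 1.5 times their value, the member median moved by less than the members' median SE, and no member's ratio changed sign. Only the scalings and quantile normalization could have changed the sign of a member's ratio. The pseudocounts, the filter, the thresholds and the short list could not. Arntl and Npas2 have no value after quantile normalization. Among the differences between paralogues, Clock minus Npas2 changed sign with pseudocounts of 1 and 0.5, to 0.16 and 0.18, and so did Per1 minus Per2, to -0.03 and -0.01, in each case by less than the SE of the difference as deposited. Leaving out single libraries was not run, since the tables hold 1 value per genotype. No paired analysis was possible because the animal numbers do not repeat between genotypes. Depth is unknown, and with a median SE of 0.279 small changes could not be called.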

Other observations

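Genes induced by glucocorticoids or cAMP, signals that act on Per1 and reset liver clocks, had 12 tested members, of which 0 rose, 2 fell and 10 did not pass. Their median log2 ratio was -0.39, and 0.504% of all tested genes fell. Sik1, a salt-inducible kinase that restrains cAMP signalling to the clock, fell to 4.79 FPKM in knockout livers, against 11.2 FPKM in wildtype livers (-1.22 ± 0.24, q = 0.00015 in the authors' deposited table). Dusp1, a MAP kinase phosphatase, fell to 20.5 FPKM in knockout livers, against 42.4 FPKM in wildtype livers (-1.05 ± 0.24, q = 0.0015 in the authors' deposited table). Tsc22d3, a glucocorticoid-induced leucine zipper gene, stood at 48.8 FPKM in knockout livers and 85.5 FPKM in wildtype livers and did not pass (q = 0.0831 in the authors' deposited table).

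Of 10 tested genes that respond to heat or cold, a group that follows daily body temperature and includes Cirbp, whose product binds Clock transcripts, 0 rose, 1 fell and 9 did not pass. Their median log2 ratio was -0.40, and 0.504% of all tested genes fell. Looked up afterwards, the SE of Cirbp was 5.83, so a log2 ratio of 20.2 in size would have been needed for a call. Its deposited locus is also that of Elane, a neutrophil marker. Hsph1, a heat shock chaperone, fell to 13.8 FPKM in knockout livers, against 24.6 FPKM in wildtype livers (-0.84 ± 0.24, q = 0.0428 in the authors' deposited table). Hspa1b stood at 6.15 FPKM in knockout livers and 10.5 FPKM in wildtype livers, and its near-identical copy Hspa1a at 0.719 FPKM in knockout livers and 1.34 FPKM in wildtype livers; reads of these copies may have been split between them.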
